A study of Rattus norvegicus with 16 samples.

Results

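The genes described here handle fat in the muscle fibre. They were the 10 genes Ppard, Pnpla2, Pnpla7, Acadl, Cpt1b, Cd36, Lpl, Pdk4, Ucp3 and Hadha, each read from the transcript cluster that the array's annotation names for it. Where a symbol had several clusters, the one of highest mean signal was to be used. Of the 10 genes, 9 had a cluster among the 23188 clusters tested, which stand for 15037 gene symbols. Cd36, a membrane protein that carries fatty acids into cells, had no matched cluster and was not analysed here.

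A muscle fibre takes fatty acids from blood lipoproteins, which lipoprotein lipase (Lpl) hydrolyses at the capillary wall, or from its own lipid droplets, which adipose triglyceride lipase (Pnpla2) opens. Activated fatty acids enter the mitochondrion through carnitine palmitoyltransferase 1 (Cpt1b in muscle) and are shortened by the enzymes of beta-oxidation, among them Acadl and Hadha. The nuclear receptor PPARδ (Ppard) switches on many of these genes. Pyruvate dehydrogenase kinase 4 (Pdk4) inhibits pyruvate dehydrogenase, the mitochondrial enzyme that passes glucose carbon on to oxidation. The diaphragm contracts throughout life and is rich in mitochondria that burn fat.

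Diaphragm RNA came from 16 adult male Wistar rats of 14 to 16 weeks, 1 Rat Clariom S array per rat and 4 rats in each of 4 groups. CON rats were not ventilated, and their diaphragm was taken as soon as they were anaesthetised. V12 rats were tracheotomised and ventilated mechanically for 12 h under urethane after induction with isoflurane. S-V12 rats had in addition a midline laparotomy with electrodes placed in the diaphragm, which were left silent, and received supplemental oxygen. E-V12 rats underwent the same operation with oxygen, and their diaphragm was stimulated electrically throughout the 12 h. V12/CON therefore holds ventilation, tracheostomy, long anaesthesia and elapsed time together, and S-V12/V12 holds the operation, the electrodes and the oxygen together. E-V12/S-V12 is the comparison designed to differ by stimulation alone. The methods state that tissue around the electrode was taken out in preparing the array specimen. They do not make clear whether that tissue was discarded or used.

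Signals are log2 values, so a difference of 1 is a doubling. Array medians ran from 5.57 to 5.73. Between 33.0% and 40.9% of clusters lay above the highest of 23 background control rows of their array, with the lowest share on CON array 3. All 9 genes were above it on each of the 16 arrays. The 8 measured skeletal muscle fibre markers were above it on all arrays, and their summed signal lay between 22.3 and 22.6. Acta1 and Ckm, which weigh most in that sum, lay at or next to the highest signal of their array, so the sum cannot show a change at the top of the scale. Of the 8, Tnnt1, a slow fibre troponin, fell by 0.62 ± 0.19 in S-V12/V12 (limma adjusted p = 0.0307), a call lost without V12 array 2 or 3 or S-V12 array 1 or 4 (up to 0.0815), and by 0.83 ± 0.19 in S-V12/CON (0.0019). Actn2, a sarcomere protein, fell by 0.52 ± 0.18 in E-V12/CON (limma adjusted p = 0.0388), lost without CON array 1, 2 or 4 or E-V12 array 1, 3 or 4 (up to 0.119). Of 7 measured adipocyte markers 4 (Lep, Retn, Pck1 and Slc7a10), and the brown fat or liver markers Ucp1, Alb, Apoa1 and Ttr, were below it on all arrays. The other 3 adipocyte markers, Adipoq, Cidec and Cfd, were above it on at least 1 array of every group. Adipoq varied widely within groups, from 6.10 to 10.39 in CON, 6.85 to 12.03 in V12, 7.41 to 10.13 in S-V12 and 7.43 to 11.57 in E-V12. In whole muscle, fewer cells of a type and less RNA per cell cannot be told apart.

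Promoter sequences are shown for the 3 genes of the set that rose most clearly in V12 and for Ucp3, which was not called there, so that the genes that moved together can be compared at their start sites. RefSeq (GRCr8) gave a 300-base window, 250 bases before and 50 after a transcript start, for 6 of the 10 genes. Motifs were searched on both strands. They were the PPAR response element AGGTCANAGGTCA with up to 2 mismatches, the FOXO site GTAAACA, the estrogen-related receptor site TCAAGGTCA, the glucocorticoid response element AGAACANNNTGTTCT with up to 2 mismatches, and the E-box CACGTG, which was added after the windows had been read. Capitals mark the matches.
Pdk4, chr4:34568280-34568579, minus strand: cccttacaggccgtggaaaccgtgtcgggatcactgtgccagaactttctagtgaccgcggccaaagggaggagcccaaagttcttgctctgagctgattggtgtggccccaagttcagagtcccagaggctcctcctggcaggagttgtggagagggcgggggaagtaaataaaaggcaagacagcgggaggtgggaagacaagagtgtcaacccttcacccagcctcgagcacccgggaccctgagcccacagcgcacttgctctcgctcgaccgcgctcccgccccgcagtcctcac
Pnpla2, chr1:205982029-205982328, plus strand: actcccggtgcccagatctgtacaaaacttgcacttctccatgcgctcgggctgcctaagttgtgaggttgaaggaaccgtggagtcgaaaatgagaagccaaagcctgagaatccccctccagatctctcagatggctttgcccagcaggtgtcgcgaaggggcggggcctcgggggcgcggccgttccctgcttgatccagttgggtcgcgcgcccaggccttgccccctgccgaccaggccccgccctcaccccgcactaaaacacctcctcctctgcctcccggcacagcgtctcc
Pnpla7, chr3:28180501-28180800, plus strand: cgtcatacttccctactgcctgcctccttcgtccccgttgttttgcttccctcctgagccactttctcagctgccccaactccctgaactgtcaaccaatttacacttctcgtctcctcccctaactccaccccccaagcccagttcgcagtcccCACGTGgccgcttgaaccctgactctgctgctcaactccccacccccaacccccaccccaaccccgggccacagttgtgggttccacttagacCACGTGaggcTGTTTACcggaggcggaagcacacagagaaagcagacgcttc
Ucp3, chr1:164227660-164227959, plus strand: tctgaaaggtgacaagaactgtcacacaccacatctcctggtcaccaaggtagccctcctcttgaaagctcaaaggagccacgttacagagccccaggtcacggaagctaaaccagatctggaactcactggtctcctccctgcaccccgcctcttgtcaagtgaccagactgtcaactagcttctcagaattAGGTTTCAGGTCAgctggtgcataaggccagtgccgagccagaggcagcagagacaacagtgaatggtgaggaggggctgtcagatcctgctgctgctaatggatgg

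No motif matched in the Pdk4 and Pnpla2 windows, nor in those of Hadha and Cd36, which were searched but are not shown. Pnpla7 held the E-box at positions -95 to -90 and -2 to 3, counted from the start base as 0, and a FOXO site on the opposite strand at positions 8 to 14. Ucp3 held a PPAR element with 2 mismatches at positions -57 to -45. Of the 6 windows searched, only that of Ucp3 held this element. Over 33469 rat promoter windows of the same length, the PPAR element was found in 3.77%, the FOXO site in 3.78%, the estrogen-related receptor site in 0.433%, the glucocorticoid element in 1.87% and the E-box in 6.42%. The 3 promoters of the genes that rose together thus shared none of these motifs as searched. The FOXO site, the estrogen-related receptor site and the E-box were searched without mismatches, so variants of them were not looked for. The matches describe the windows only.

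The 9 genes did not move as one. Pdk4 was far higher in all ventilated groups than in CON. Pnpla2 and Pnpla7 also rose in V12/CON and were lower in E-V12 than in V12, while Ppard was highest in S-V12. Acadl fell in both operated groups against V12, Lpl fell in V12 and E-V12 against CON, and Cpt1b, Hadha and Ucp3 were called in no comparison.

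Pdk4 showed the widest change of the 9 genes. It read 14.50, 15.98, 15.21 and 14.52 in CON arrays 1 to 4, and 19.25, 19.27, 19.31 and 19.28 in V12. The S-V12 arrays read 19.37, 19.45, 19.33 and 19.52, and the E-V12 arrays 18.74, 19.37, 19.30 and 19.15. Every ventilated rat thus stood above every CON rat by more than the whole CON range, whether operated, stimulated or neither. In V12/CON the rise was 4.23 ± 0.25 (log2 difference ± SE, n = 4 per group), which is 18.7-fold (limma adjusted p = 3.6e-11). S-V12/CON gave 4.37 ± 0.25 (limma adjusted p = 8.74e-12) and E-V12/CON 4.09 ± 0.25 (limma adjusted p = 2.98e-11). These 3 comparisons share the CON arrays.

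Among the ventilated groups Pdk4 was not called. S-V12/V12 gave 0.14 (95% interval -0.38 to 0.66), with separate groups, and E-V12/S-V12 -0.28 (-0.80 to 0.24), both by limma. These intervals use a spread shared by the 4 groups. The SD of Pdk4 was 0.70 in CON, 0.03 in V12, 0.08 in S-V12 and 0.28 in E-V12. The highest cluster of an array read 19.7 to 19.9, so the ventilated values lay close to the top of the scale.

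Adipose triglyceride lipase, Pnpla2, cuts the first fatty acid from stored triglyceride. It read 12.60, 11.71, 11.92 and 13.99 in CON and rose to 14.82, 15.09, 14.98 and 14.55 in V12, with no overlap. The S-V12 arrays, at 14.98, 14.69, 14.71 and 14.85, lay within the V12 range, whereas the E-V12 arrays, at 12.94, 14.08, 13.80 and 13.56, all lay below both. In V12/CON the rise was 2.30 ± 0.34 or 4.94-fold (limma adjusted p = 3.9e-05), and in S-V12/CON it was 2.25 ± 0.34 (limma adjusted p = 2.5e-05). The V12 and S-V12 means differed by -0.05 (95% interval -0.76 to 0.66).

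With stimulation the Pnpla2 mean was lower by 1.21 on the log2 scale than in S-V12 (95% interval -1.92 to -0.50), and the groups were separate. That difference missed the threshold (limma adjusted p = 0.0594). It passed when CON array 1, 2 or 4 was left out (adjusted p = 0.0456, 0.04 and 0.0139), when limma was fitted to the S-V12 and E-V12 arrays only (0.011) and with array weights (0.0274). In E-V12/V12 Pnpla2 fell by 1.26 ± 0.34 (limma adjusted p = 0.0223), a call that ended without V12 array 2 or 3 or E-V12 array 1 or 4 (adjusted p 0.0512 to 0.0932). E-V12 stayed above CON by 1.04 ± 0.34 (limma adjusted p = 0.0292) although CON array 4 overlapped it. This last call ended without CON array 2 or 3 or E-V12 array 2, 3 or 4 (adjusted p 0.0515 to 0.124).

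Pnpla7 is a patatin-like relative of Pnpla2 that acts on lysophospholipids. The study named Pnpla2, Pnpla7 and Ppard from these same arrays, so their changes here are not independent evidence. It also listed Ppara, Cpt1a and Pdk2, described below, among its changed genes, so the same holds for them. Pnpla7 read 11.15, 9.57, 9.57 and 10.99 in CON, and 13.82, 13.47, 13.27 and 13.22 in V12. It read 12.56, 12.56, 12.28 and 12.84 in S-V12, and 11.71, 11.90, 12.08 and 11.57 in E-V12. The 4 groups did not overlap at any point, with V12 highest, then S-V12, E-V12 and CON.

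The rise of Pnpla7 in V12/CON was 3.12 ± 0.29 or 8.71-fold (limma adjusted p = 6.9e-08). It was lower in S-V12 than in V12 by -0.88 ± 0.29 (limma adjusted p = 0.0463). That call ended when any V12, S-V12 or E-V12 array was left out, with adjusted p from 0.0503 to 0.123. The further step to E-V12 was -0.75 ± 0.29 and was not called (limma adjusted p = 0.187), although it passed in a fit of those 2 groups alone (0.0331). Across both steps, E-V12/V12, Pnpla7 fell by 1.63 ± 0.29 (limma adjusted p = 0.000986). All 3 ventilated groups remained above CON, by 2.24 ± 0.29 in S-V12/CON (limma adjusted p = 3.99e-06) and 1.49 ± 0.29 in E-V12/CON (limma adjusted p = 0.000516).

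**Figure D1:**
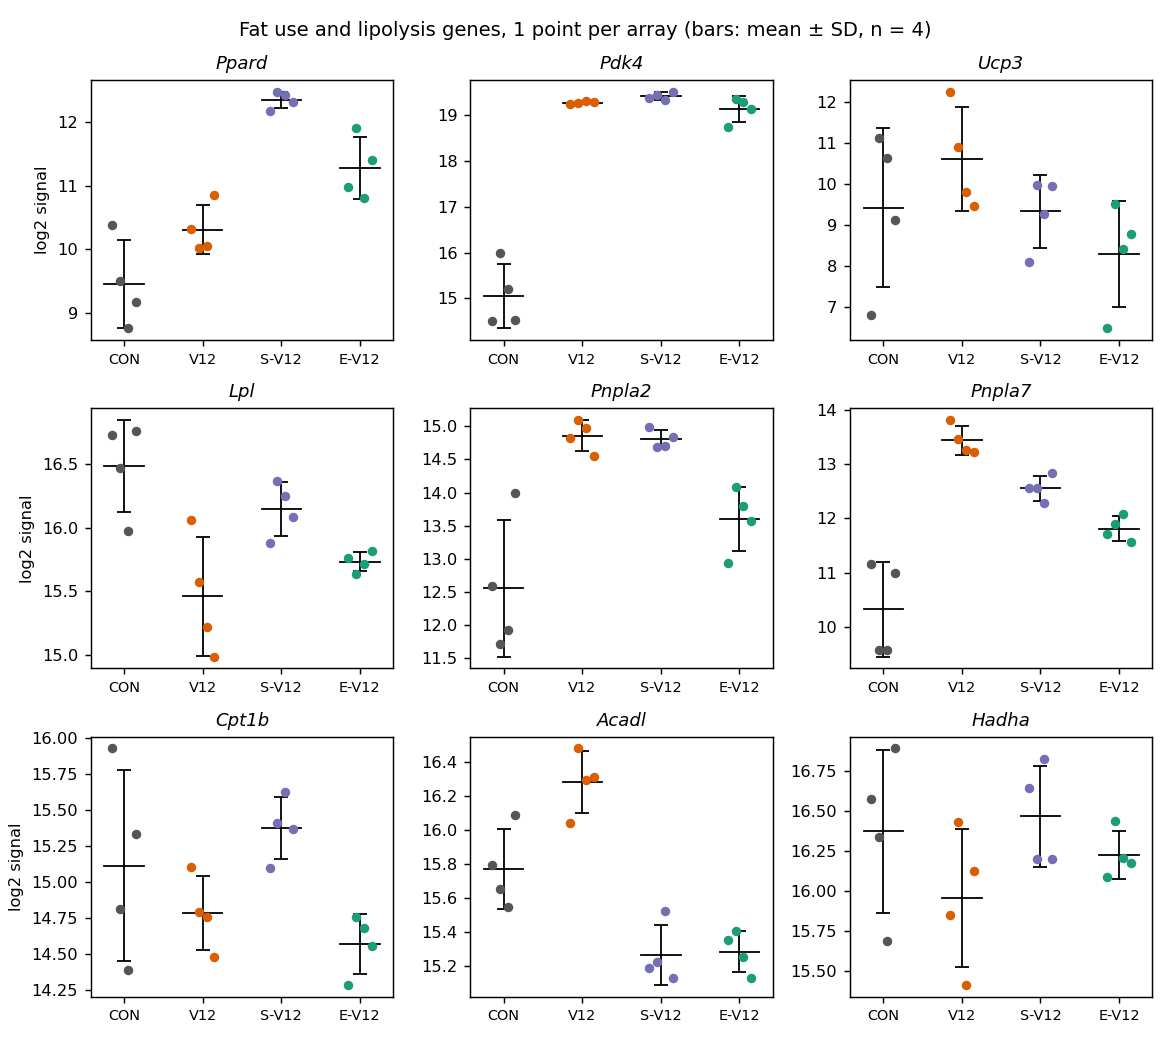
The log2 signal of each of the 9 genes on the vertical axis, 1 point per array, for the groups CON, V12, S-V12 and E-V12, with bars for mean ± SD (n = 4); vertical scales differ between panels. Pdk4 stands near 19 in all ventilated groups, Pnpla2 is lower in E-V12 than in V12 and S-V12, and Ppard is highest in S-V12, with a mean of 12.35.

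Ppard encodes the PPARδ receptor. It read 10.38, 9.50, 8.76 and 9.17 in CON and 10.31, 10.02, 10.05 and 10.86 in V12. The S-V12 arrays were the highest, at 12.18, 12.48, 12.43 and 12.32, and the E-V12 arrays read 10.98, 11.91, 10.81 and 11.41. S-V12 thus stood apart from the other groups, E-V12 overlapped V12, and V12 overlapped CON through CON array 1. Ppard rose by 2.04 ± 0.29 or 4.12-fold in S-V12/V12 (limma adjusted p = 4.51e-05), and 2.90 ± 0.29 in S-V12/CON (limma adjusted p = 7.31e-08).

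Apart from E-V12/CON, the remaining differences of Ppard were near the threshold. V12/CON gave 0.86 ± 0.29 (limma adjusted p = 0.0451). The call ended without CON array 2, 3 or 4, V12 array 1, 3 or 4, any S-V12 array or E-V12 array 4, with adjusted p from 0.0511 to 0.175. In E-V12/S-V12 Ppard fell by 1.08 ± 0.29, a 2.11-fold difference (limma adjusted p = 0.0472), and the groups were separate. This call ended without CON array 4, V12 array 1, 2 or 3, any S-V12 array, or E-V12 array 1, 3 or 4, with adjusted p from 0.051 to 0.175, and after quantile normalization (0.0558). E-V12 stayed above V12 by 0.97 ± 0.29 (limma adjusted p = 0.0391), a call that ended without V12 array 1, 2 or 3 or E-V12 array 2 or 4 (0.0782 to 0.142) and after quantile normalization (0.0591). Against CON the E-V12 rise was 1.83 ± 0.29 (limma adjusted p = 4.32e-05).

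Lipoprotein lipase, Lpl, read 16.73, 16.47, 15.98 and 16.76 in CON and 16.06, 15.57, 15.22 and 14.99 in V12. The S-V12 arrays read 15.88, 16.37, 16.25 and 16.08, and the E-V12 arrays 15.76, 15.64, 15.72 and 15.82. V12 held the lowest values, E-V12 lay close together in the middle, and CON array 3 overlapped V12. Lpl fell by 1.02 ± 0.22 in V12/CON, a 2.03-fold difference (limma adjusted p = 0.00234), and by 0.75 ± 0.22 in E-V12/CON (limma adjusted p = 0.0167), which was not called without CON array 4 (0.0592). It was higher in S-V12 than in V12 by 0.68 ± 0.22 (limma adjusted p = 0.0434). That call ended without V12 array 2, 3 or 4, S-V12 array 2, 3 or 4, or any E-V12 array (0.0501 to 0.153). In E-V12/S-V12 every stimulated rat was below every sham rat, but the difference of -0.41 was not called (95% interval -0.88 to 0.06).

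Of the 3 genes of mitochondrial entry and beta-oxidation, Acadl was called and Cpt1b and Hadha were not. Acadl, the long-chain acyl-CoA dehydrogenase, read 15.80, 15.65, 15.54 and 16.09 in CON and 16.04, 16.48, 16.30 and 16.32 in V12. Both operated groups were lower, S-V12 at 15.18, 15.22, 15.52 and 15.13 and E-V12 at 15.35, 15.40, 15.25 and 15.13. The operated rats were separate from V12 and from CON. Acadl fell by 1.02 ± 0.18 in S-V12/V12 (limma adjusted p = 0.000439) and by 1.0 ± 0.18 in E-V12/V12 (limma adjusted p = 0.000947), while E-V12 and S-V12 differed by 0.02 (95% interval -0.35 to 0.39). V12/CON, at 0.51 ± 0.18, missed the threshold (limma adjusted p = 0.0545) but passed without CON array 4 (0.0297) or V12 array 1 (0.0377).

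Against CON, Acadl fell in S-V12 by 0.51 ± 0.18 (limma adjusted p = 0.0413), a call lost without CON array 1 or 4, S-V12 array 1, 2 or 4 or E-V12 array 3 (0.0503 to 0.141). E-V12/CON gave -0.49 ± 0.18 (limma adjusted p = 0.0532), and passed without CON array 3 (0.0364) and after quantile normalization (0.0222).

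Cpt1b, the gate of the carnitine shuttle in muscle, read 15.93, 14.81, 14.39 and 15.33 in CON, which spanned the values of most other arrays. It read 15.11, 14.79, 14.76 and 14.48 in V12, 15.10, 15.41, 15.63 and 15.37 in S-V12, and 14.29, 14.76, 14.68 and 14.56 in E-V12. No comparison was called. In E-V12/S-V12 the groups were separate, with a difference of -0.81 (95% interval -1.33 to -0.28, limma adjusted p = 0.087). It passed without CON array 1 (0.0282), with array weights (0.0263) and in a fit of those 2 groups (0.0221). E-V12/CON, -0.54 ± 0.25 (limma adjusted p = 0.134), passed without CON array 3 (0.0223).

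Hadha, the alpha subunit of the mitochondrial trifunctional protein, read 16.58, 16.34, 15.69 and 16.89 in CON and 15.85, 16.43, 15.41 and 16.12 in V12. It read 16.64, 16.20, 16.82 and 16.20 in S-V12 and 16.09, 16.44, 16.21 and 16.18 in E-V12. All 4 groups overlapped, and no comparison was called. The differences ran from -0.42 in V12/CON (95% interval -0.93 to 0.10) to 0.51 in S-V12/V12 (-0.0049 to 1.03). Its partner subunit gene Hadhb lies head to head with it, with starts 301 bases apart on opposite strands. Hadhb was not called either, and its group means ran from 16.55 in CON to 16.71 in V12.

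Ucp3, a mitochondrial carrier of muscle known to respond to fatty acid supply, was the most scattered of the 9 genes. It read 6.81, 11.14, 10.64 and 9.14 in CON, 12.26, 10.91, 9.82 and 9.47 in V12, 8.11, 9.99, 9.29 and 9.97 in S-V12, and 6.50, 9.51, 8.41 and 8.80 in E-V12. The standard error of a difference was 0.75, and no comparison was called. V12/CON gave 1.18 (95% interval -0.37 to 2.74) and E-V12/V12 -2.31 (-3.86 to -0.76, limma adjusted p = 0.0578). The latter passed without CON array 1 (0.0156) or 2 (0.0436), V12 array 4 (0.041) or E-V12 array 2 (0.0398), and E-V12/CON passed without CON array 1 (0.0283). Its chromosomal neighbour Ucp2, a related carrier found in many tissues, rose in V12/CON by 1.07 ± 0.33 (limma adjusted p = 0.028), a call lost without CON array 2 or 3 or V12 array 1, 2 or 3 (up to 0.116). Ucp2 fell in E-V12/V12 by 1.91 ± 0.33 (limma adjusted p = 0.000665) with separate groups.

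Counted together, 4 of the 9 genes rose and 1 fell in V12/CON, where 7.68% of all clusters rose and 8.67% fell. Of those that rose, Ppard, Pnpla2 and Pnpla7 had been named by the study from these same arrays. In S-V12/V12, 2 rose and 2 fell, against 8.05% and 6.66% of all clusters. In E-V12/S-V12, 0 rose and 1 fell, against 1.19% and 1.51%. In E-V12/V12, 1 rose and 3 fell, against 4.75% and 3.81%. In S-V12/CON, 4 rose and 1 fell, against 12.0% and 12.8%, and in E-V12/CON likewise 4 and 1, against 10.9% and 12.6%.

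The median difference of the 9 genes was 0.86 in V12/CON, which is the value of Ppard. For S-V12/V12 it was 0.14, the value of Pdk4, and for E-V12/S-V12 -0.75, that of Pnpla7. The median of all clusters stayed within -0.05 and 0.03 in these comparisons. Because the study named Ppard and Pnpla7 from these arrays, the medians and counts only describe the 9 genes and are not a test of them. Most clusters of the array are dim. Among the 9143 clusters whose mean signal exceeded the mean of the arrays' highest background rows, 15.0% rose and 16.9% fell in V12/CON. For S-V12/V12 the shares were 17.7% and 12.5%, and for E-V12/S-V12 they were 2.68% and 3.53%. They were 10.6% and 7.47% in E-V12/V12, 24.5% and 23.7% in S-V12/CON, and 21.2% and 23.7% in E-V12/CON. The 4 poly-A labelling control rows report on labelling and not on the rats. They averaged 7.09 ± 0.40 (SD, n = 4) in CON, 6.48 ± 0.37 in V12, 6.99 ± 0.14 in S-V12 and 5.98 ± 0.19 in E-V12. Their part in E-V12/S-V12 and in the other comparisons was not tested.

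**Figure D2:**
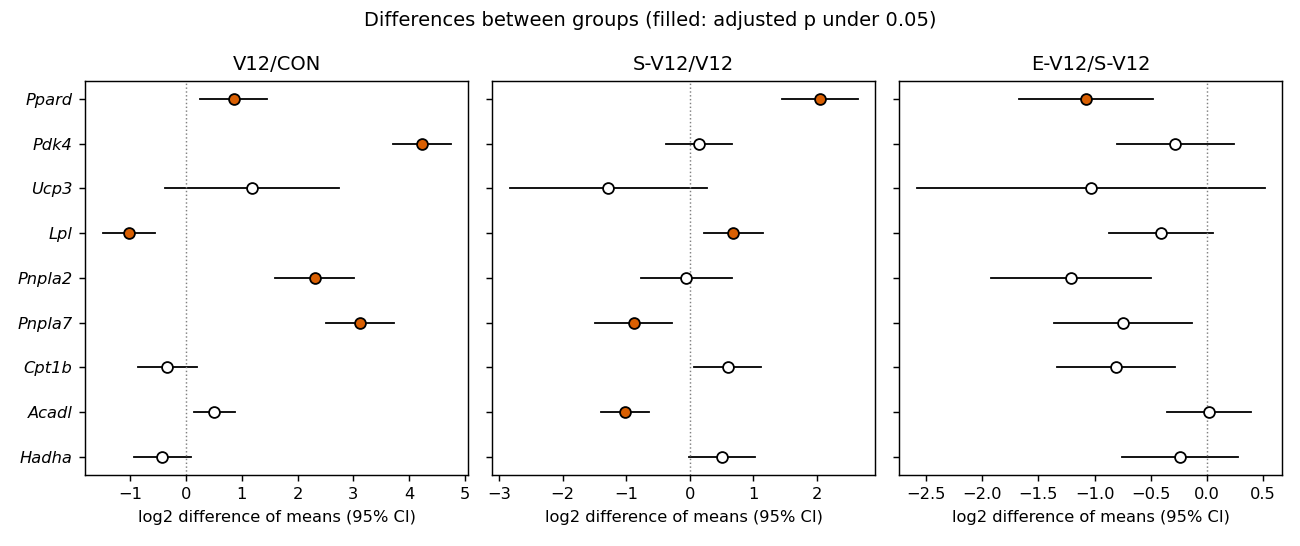
Differences of group means (log2, horizontal axis, with 95% intervals from limma) of the 9 genes in V12/CON, S-V12/V12 and E-V12/S-V12; filled points had an adjusted p under 0.05 and horizontal scales differ. In V12/CON Pdk4 lies farthest from 0 at 4.23, and in E-V12/S-V12 the only filled point is Ppard at -1.08.

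The wider pathway was read from 10 lists by role with 77 further genes, of which 70 had a cluster. In V12/CON 9 of the 70 rose and 22 fell. In S-V12/V12 13 rose and 7 fell, in E-V12/S-V12 0 and 2, in E-V12/V12 7 and 8, in S-V12/CON 13 and 23, and in E-V12/CON 10 and 25. The rise of Pdk4, Pnpla2 and Pnpla7 in V12 was therefore not the direction of most of the pathway genes called in V12/CON. Beside these counts, 15.0% of clusters above background rose and 16.9% fell in V12/CON, and 17.7% and 12.5% in S-V12/V12. In E-V12/S-V12 the shares were 2.68% and 3.53%, and in E-V12/V12 10.6% and 7.47%. They were 24.5% and 23.7% in S-V12/CON and 21.2% and 23.7% in E-V12/CON. Whether the pathway counts differ from these shares was not tested.

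Of the 5 other regulators, 2 fell and 0 rose in V12/CON, against 16.9% and 15.0% of clusters above background. Ppara encodes PPARα, the sister receptor of PPARδ. It read 9.81 to 10.80 in CON with all ventilated arrays between 6.57 and 8.36, and fell by 3.04 ± 0.29 in V12/CON (limma adjusted p = 7.2e-08). Rxrg, a partner receptor that pairs with the PPARs, fell by 1.52 ± 0.30 (limma adjusted p = 0.000985). Ppara rose from V12 to S-V12 by 0.91 ± 0.29 (limma adjusted p = 0.036), a call lost without V12 array 2, 3 or 4 or S-V12 array 2, 3 or 4 (up to 0.139), and stayed below CON by 2.13 ± 0.29 there (limma adjusted p = 5.45e-06). Across these arrays Ppard and Ppara therefore differed from CON in opposite directions in all 3 ventilated groups.

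Among 9 genes of uptake and trapping, 3 rose and 3 fell in V12/CON, against 15.0% and 16.9% of clusters above background. Vldlr, a receptor for triglyceride-rich lipoproteins, fell by 2.09 ± 0.25 (limma adjusted p = 1.99e-06), and Cav1, a caveolar coat protein, by 2.03 ± 0.41 (limma adjusted p = 0.00105). Slc27a1, a fatty acid transporter above background on 2 CON and 2 S-V12 arrays only, was called lower as well, but not without CON array 1 or 4 or V12 array 2, 3 or 4 (up to 0.163). The genes called higher were Fabp4, a fatty acid binding protein of fat cells, macrophages and capillaries, Gpihbp1, which anchors Lpl to the capillary, and Angptl4, a secreted inhibitor of Lpl. Gpihbp1 was below background on all arrays and Angptl4 on all CON arrays, so no size is given for them. The Angptl4 call was lost without CON array 1 or V12 array 1 or 3 (up to 0.0864). Fabp4 gave 1.53 ± 0.51 (limma adjusted p = 0.0424), lost without CON array 1 or 4, V12 array 1, 2 or 3, or S-V12 array 2 or 4 (up to 0.164).

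In S-V12/V12 Fabp4 fell by 2.03 ± 0.51 (limma adjusted p = 0.00837) while Angptl4 rose by 1.20 ± 0.32 (limma adjusted p = 0.0129), from 6.57 to 7.52 in V12 to 7.92 to 8.33 in S-V12. Lpl, its target, was higher in S-V12 than in V12, as given above. Nothing in this list was called in E-V12/S-V12.

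Fatty acid activation split by enzyme. Acsl1, the main acyl-CoA synthetase of muscle, fell by 1.61 ± 0.27 in V12/CON (limma adjusted p = 0.000178) and Acsl6 by 2.08 ± 0.21 (limma adjusted p = 1.77e-07), and Acsl3 by 0.83 ± 0.28 (limma adjusted p = 0.0494). The Acsl3 call was lost without CON array 2 or 3, V12 array 2, 3 or 4, S-V12 array 2, 3 or 4, or E-V12 array 1, 2 or 3 (up to 0.165). Acsl4, which prefers arachidonic acid, rose by 1.27 ± 0.24 (limma adjusted p = 0.000475) and again by 1.05 ± 0.24 in S-V12/V12 (limma adjusted p = 0.00358). Dbi, the acyl-CoA binding protein, fell by 1.84 ± 0.22 in S-V12/V12 (limma adjusted p = 8.11e-06), and Acot13, a thioesterase, by 1.28 ± 0.24 (limma adjusted p = 0.00085).

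Among the storage genes 3 of 8 rose and 1 fell in V12/CON, against 15.0% and 16.9% of clusters above background. Plin2, which coats lipid droplets, read 9.06 to 9.12 in CON, 10.77 to 11.32 in V12, 11.58 to 12.19 in S-V12 and 11.39 to 11.98 in E-V12. It rose by 1.85 ± 0.19 in V12/CON (limma adjusted p = 3.11e-07) and by 1.02 ± 0.19 in S-V12/V12 (limma adjusted p = 0.000855). Lpin1, a phosphatidate phosphatase, rose by 1.78 ± 0.24 (limma adjusted p = 1.45e-05) and Dgat2, which adds the last fatty acid of triglyceride, by 1.70 ± 0.37 (limma adjusted p = 0.00202), in V12/CON. Fitm2, which helps droplets to form, fell by 0.96 ± 0.24 (limma adjusted p = 0.00651). Dgat1, the other such acyltransferase, rose by 1.26 ± 0.26 in S-V12/V12 (limma adjusted p = 0.00178).

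Of 5 other lipolysis genes, 0 rose and 2 fell in V12/CON, against 15.0% and 16.9% of clusters above background. A list of 5 is too short to be told apart from these shares. Lipe, not called in V12/CON, was above background on 2 CON arrays, 1 V12 array, 1 S-V12 array and 0 E-V12 arrays. Mgll, which ends lipolysis by splitting monoglyceride, fell by 1.09 ± 0.20 (limma adjusted p = 0.000342). Pnpla3, the other gene called lower, was below background on all arrays, and its call was lost without CON array 2 or 3 or V12 array 4 (up to 0.0888). Abhd5, the protein that activates Pnpla2, read 9.70 to 9.87 in CON and 9.63 to 9.93 in V12, and rose by 0.78 ± 0.18 in S-V12/V12 (limma adjusted p = 0.00421). E-V12 arrays, at 10.66 to 11.08, were above V12 by 1.11 ± 0.18 (limma adjusted p = 0.000339), a comparison in which Pnpla2 itself fell. G0s2, which inhibits Pnpla2, was not called in V12/CON (-0.56 ± 0.23) and fell by 1.13 ± 0.23 in E-V12/CON (limma adjusted p = 0.000818).

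In the carnitine shuttle 1 of 8 further genes fell in V12/CON, Slc25a20, the carnitine carrier, by 0.72 ± 0.22 (limma adjusted p = 0.0245), lost without CON array 2 or 3 or V12 array 2, 3 or 4 (up to 0.08). Cpt1a, the isoform typical of liver, rose by 1.14 ± 0.29 in S-V12/V12 (limma adjusted p = 0.01). Of 13 further beta-oxidation genes, 0 rose and 2 fell in V12/CON, Echs1 by 0.75 ± 0.18 (limma adjusted p = 0.00497) and Eci1 by 0.93 ± 0.25 (limma adjusted p = 0.0124, lost without CON array 4 or V12 array 3, up to 0.0617). In S-V12/V12 0 rose and 3 fell, Decr1 by 1.27 ± 0.28, Etfb by 1.05 ± 0.25 and Etfa by 0.72 ± 0.19 (limma adjusted p = 0.00344, 0.00506 and 0.011). Acadl fell beside them. Against CON, 7 of the 13 were lower in S-V12 and 5 in E-V12, and 0 were higher in either. Among the clusters above background, 16.9% fell in V12/CON, 12.5% in S-V12/V12, 23.7% in S-V12/CON and 23.7% in E-V12/CON. The shares that rose were, in the same order, 15.0%, 17.7%, 24.5% and 21.2%.

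Of 9 further genes of pyruvate dehydrogenase, the enzyme that Pdk4 blocks, 6 fell and 1 rose in V12/CON. Among clusters above background, 16.9% fell and 15.0% rose there. In S-V12/CON and E-V12/CON, where Pdk4 rose too, 0 rose in either, and 0 and 2 fell, Pdk2 and Pdpr in the latter. The shares of clusters above background that rose in these were 24.5% and 21.2%, and 23.7% fell in each. In V12/CON Pdp1, a phosphatase that reactivates the enzyme, fell by 1.48 ± 0.23 (limma adjusted p = 7.36e-05), and Pdpr, which regulates that phosphatase, by 1.15 ± 0.21 (limma adjusted p = 0.000361). Pdk1, a kinase of the same family as Pdk4, fell by 0.83 ± 0.19 (limma adjusted p = 0.00359). In S-V12/V12 Pdp1 rose by 0.94 ± 0.23 (limma adjusted p = 0.00761) and Pdpr by 0.96 ± 0.21 (limma adjusted p = 0.00284), while Pdhb, a subunit of the enzyme, fell by 0.91 ± 0.18 (limma adjusted p = 0.00115).

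**Figure D3:**
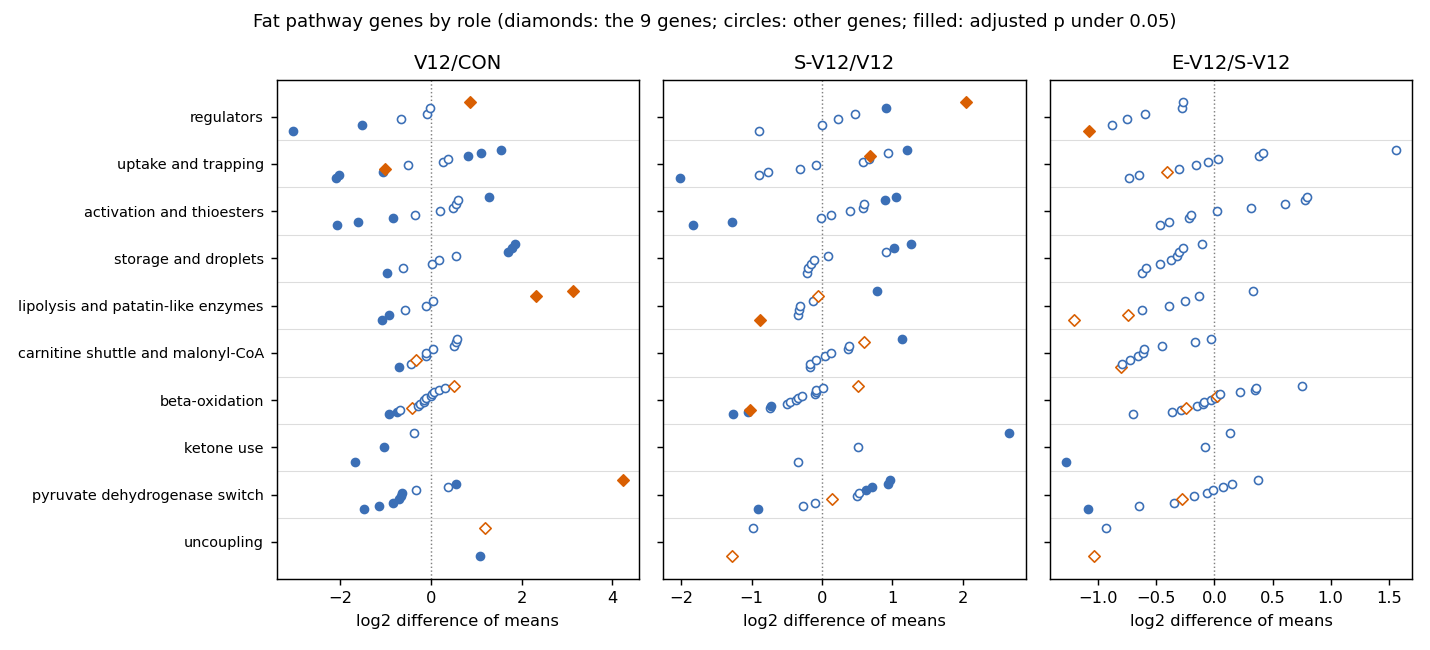
Differences of group means (log2, horizontal axis) of the 9 genes (diamonds) and 70 further pathway genes (circles) by role in V12/CON, S-V12/V12 and E-V12/S-V12; filled marks had an adjusted p under 0.05, vertical spread within a row only separates marks, and horizontal scales differ. In V12/CON Pdk4 at 4.23 and Ppara at -3.04 lie at the ends of the range, and in E-V12/S-V12 only Ppard, Bdh1 and Pdk2 are filled.

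Ketone use had 0 of 3 genes higher and 2 lower in V12/CON, against 15.0% and 16.9% of clusters above background. These were Bdh1 and Oxct1, which activates ketone bodies and fell by 1.03 ± 0.19 (limma adjusted p = 0.000344). Only Bdh1 and Pdk2 of the 70 further genes were called in E-V12/S-V12, both lower, where 3.53% of clusters above background fell. Bdh1, which oxidises the ketone body hydroxybutyrate, read 10.92 to 11.78 in CON, 9.41 to 10.01 in V12, 12.03 to 12.71 in S-V12 and 10.51 to 11.84 in E-V12. It fell by 1.68 ± 0.28 in V12/CON (limma adjusted p = 0.000126), rose by 2.66 ± 0.28 in S-V12/V12 (limma adjusted p = 1.39e-06) and fell by 1.28 ± 0.28 in E-V12/S-V12 (limma adjusted p = 0.0187). Pdk2, another pyruvate dehydrogenase kinase, read 13.95 to 14.99 in CON, 13.94 to 14.57 in V12, 13.94 to 14.09 in S-V12 and 12.57 to 13.26 in E-V12. It fell by 1.09 ± 0.24 in E-V12/S-V12 (limma adjusted p = 0.019), and every stimulated rat lay below all 12 others. Both calls in E-V12/S-V12 ended without S-V12 array 2 or E-V12 array 3 or 4, with adjusted p up to 0.0885 for Bdh1 and 0.0713 for Pdk2.

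**Figure D4:**
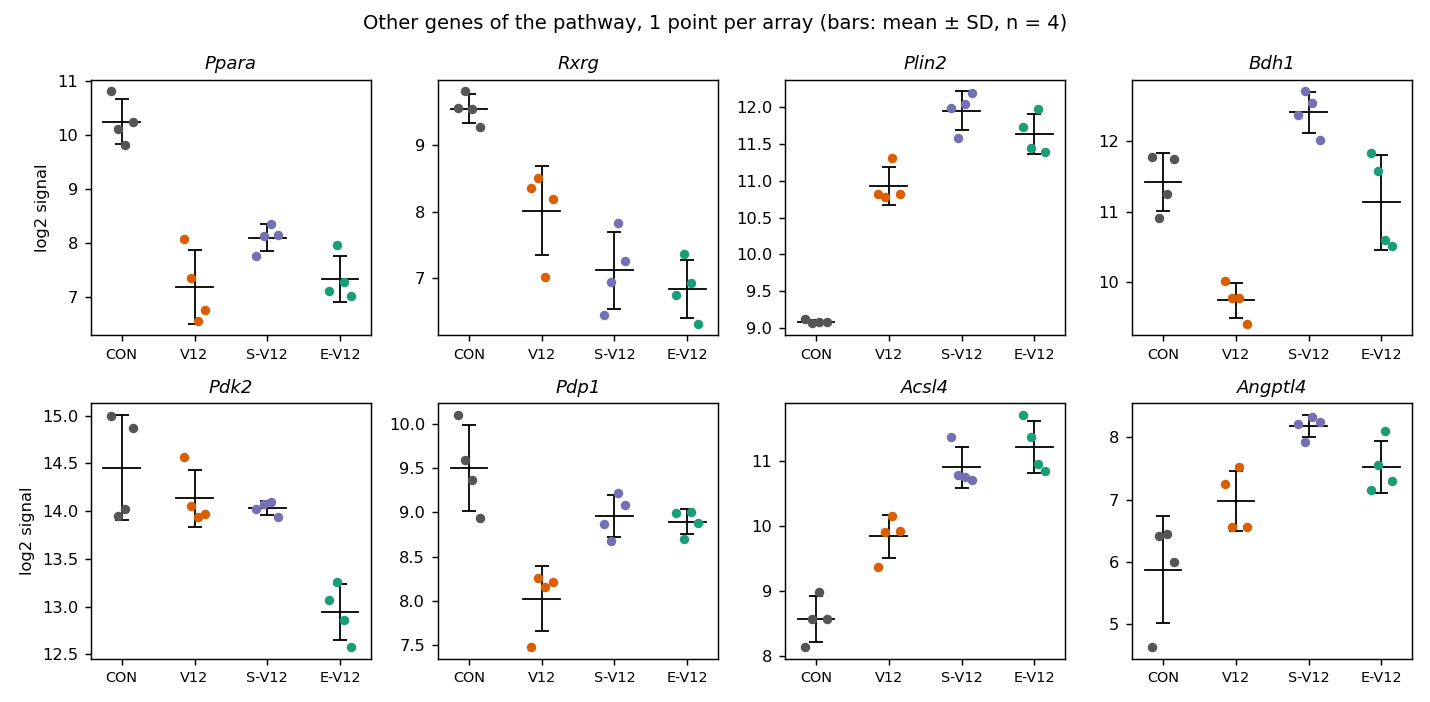
The log2 signal of 8 further pathway genes on the vertical axis, 1 point per array, for CON, V12, S-V12 and E-V12, with bars for mean ± SD (n = 4); vertical scales differ. Ppara and Rxrg are lower in every ventilated group than in CON, Plin2 and Acsl4 are higher, Bdh1 is lowest in V12 with 9.41 to 10.01, and Pdk2 is lowest in E-V12 with 12.57 to 13.26.

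Markers of other cells moved with some of these comparisons. Among clusters above background, 15.0% rose and 16.9% fell in V12/CON, 24.5% and 23.7% in S-V12/CON and 21.2% and 23.7% in E-V12/CON. The shares were 17.7% and 12.5% in S-V12/V12, 2.68% and 3.53% in E-V12/S-V12, and 10.6% and 7.47% in E-V12/V12. Of 9 macrophage markers, Cd68, Mrc1, Cd163 and C1qc rose in V12/CON and Adgre1, below background on all arrays, was called lower. Against CON, Cd68, Mrc1, Cd163 and Lyz2 rose in both operated groups, and C1qb in S-V12 (limma adjusted p = 0.0133, lost without CON array 1 or S-V12 array 4, up to 0.0599). The Cd68 call in E-V12/CON was lost without CON array 1 or 3 or E-V12 array 1 or 4 (up to 0.0747). Lyz2 was the only one called in S-V12/V12, where it rose by 2.34 ± 0.42 (limma adjusted p = 0.000509). Their summed signal ran from 10.3 to 12.0 in CON, 11.6 to 12.8 in V12, 13.9 to 14.6 in S-V12 and 13.1 to 14.8 in E-V12. The sum is carried mostly by Lyz2, the brightest of the 9. It was highest in the operated groups, where Plin2, Acsl4 and Ppard were also highest, and its part in those results was not tested. Of 8 endothelial markers, Pecam1 and Esam rose and Emcn fell in V12/CON. The Pecam1 call was lost without CON array 1 or V12 array 1 or 3 (up to 0.116), that of Emcn without CON array 2 or 3 or V12 array 4 (up to 0.103), and that of C1qc without any CON array or V12 array 1, 2 or 3 (up to 0.102). In E-V12/CON, where Lpl fell, 4 of the 8 were called lower, Emcn, which was below background on all E-V12 arrays (limma adjusted p = 1.53e-05), Cdh5 by 1.74 ± 0.40 (0.00213), Kdr by 1.14 ± 0.36 (0.023) and Tek by 0.99 ± 0.32 (0.0249), and Esam rose. The Kdr and Tek calls were lost without CON array 2 or 3 or E-V12 array 3, Kdr also without CON array 4 or E-V12 array 1 and Tek without E-V12 array 2 (up to 0.107), and that of Esam without E-V12 array 2 (0.0507). In S-V12/CON Esam and Pecam1 rose and Emcn fell, Pecam1 not without CON array 1 (0.0517). In E-V12/V12 Pecam1 and Emcn were called lower, calls lost without V12 array 1 or 3 or E-V12 array 4, and for Emcn also V12 array 2 or E-V12 array 1, 2 or 3 (up to 0.0881). Pecam1 fell in E-V12/S-V12 by 1.08 ± 0.27 (limma adjusted p = 0.0322), a call lost without any of S-V12 arrays 2 to 4 or any E-V12 array (up to 0.112). The adipocyte list had 1 gene of 7 called, higher in all 3 comparisons with CON, Retn, which was below background on all arrays. The Retn call in V12/CON was lost without CON array 1 or 2 or any V12 array (up to 0.149), in S-V12/CON without CON array 1 or 2 or S-V12 array 1, 2 or 4 (up to 0.124), and in E-V12/CON without CON array 1 or E-V12 array 2 or 4 (up to 0.063). The summed adipocyte signal ran from 7.96 to 10.8 in CON, 8.46 to 12.4 in V12, 8.66 to 10.6 in S-V12 and 8.59 to 11.8 in E-V12, and the endothelial sum from 11.3 to 11.9, 10.2 to 11.9, 10.8 to 11.3 and 10.4 to 10.8. Cidea, a droplet protein of fat cells and the remaining gene of the brown fat and liver list, was above background on all arrays and fell by 0.62 ± 0.21 in V12/CON (limma adjusted p = 0.0491), a call lost without 12 of the 16 arrays in turn: CON 2 and 4, V12 1 to 3, S-V12 1, 2 and 4, and every E-V12 array (up to 0.186). The part of the endothelial and adipocyte markers in the changes of Lpl, Fabp4 and Cav1, or in the scatter of Ucp3, was not tested.

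The genes whose signal followed Ppard most closely over the 16 arrays were Natd1 (Pearson r = 0.97), Atg13 (0.96) and Clic5 (0.96), of 15014 symbols. Those nearest to Pnpla7 were Phospho1 (0.94), Slc15a4 (0.93) and Zcchc7 (0.92). These values describe arrays that share 4 group means and are given without a test.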

How the data were processed

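Diaphragm RNA of 16 rats was labelled with biotin and hybridised to Rat Clariom S arrays. Per transcript cluster, the authors gave GEO log2 signals that they had normalised by SST-RMA in Transcriptome Analysis Console 4.0 (the deposited values, taken up here unchanged). An RMA version was not found in the labels or methods. Of 24834 rows, 1646 control rows were left out of the tests. Of the 23188 clusters left, 15049 have 1 symbol and 8139 none.

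A single limma fit (version 3.58.1, R 4.3.3) of the 4 means, with moderated variances, gave every comparison. Its p-values are two-sided, adjusted over all clusters by Benjamini-Hochberg, with a threshold of 0.05. This test replaced the parametric t test of the study's methods, which was run as an alternative. It was tested on simulated data first. The replicates are separate rats, and their number limits the precision. A gene is called above background where it exceeds the highest of 23 background rows of its array. "Rose" and "fell" denote called genes, and an array left out is named by its number in the labels.

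The members and the gene lists were chosen with earlier results of these data known. The rule named all members, all called markers and, per list and comparison, up to 3 pathway genes of smallest adjusted p. Acaca, Cpt2, Hadh, Acat1 and Pdha1, which it names in comparisons with CON or E-V12/V12 only, are given in the counts alone, and named genes are not printed for every comparison. Slc27a1, Fabp4, Angptl4, Acsl3, Fitm2, G0s2, Lipe and Hadhb, outside this rule in some comparisons, were named after their values were seen. The same holds for the uncalled markers Adipoq, Cidec and Cfd. Ppard and Pnpla7 also got the 3 symbols of highest correlation. Alternatives were another test, threshold, fit, weighting, filter, scaling, a replicate block and each array left out. Promoter windows came from RefSeq tables for GRCr8 and were matched by symbol.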

Additional observations from a re-analysis of the deposited data

How the results depend on the processing

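No called change of the 9 genes or of the pathway genes named turned its direction under any alternative. Of the repeated values of the 9 genes, 1322 kept their side of the threshold, 101 lost and 35 gained a call. With the methods' t-test at their threshold, the genes called of 9 were 2 in S-V12/V12, 2 in E-V12/S-V12 and 3 in E-V12/CON, and of the 70 pathway genes 16 in V12/CON, 11 in S-V12/V12, 7 in E-V12/V12 and 22 in E-V12/CON. With that test after Benjamini-Hochberg adjustment they were 2 in V12/CON, 0 in E-V12/S-V12, 2 in E-V12/V12 and 3 in E-V12/CON, and of the pathway genes 15 in V12/CON and 8 in E-V12/V12. With limma, an unadjusted p and a fold of 2 they were 2 in S-V12/V12 and 2 in E-V12/S-V12, and of the pathway genes 19, 11, 7 and 23 in V12/CON, S-V12/V12, E-V12/V12 and E-V12/CON. In E-V12/S-V12, where 1 of the 9 was called, a fit of the 2 groups called 4, array weights 3, leaving out the lowest 25% of signals 2, median centring 2 and quantile normalization 0; of the pathway genes the fit of the 2 groups called 8, array weights 8 and trend with robust variances 4. Array weights called 31 pathway genes in S-V12/V12. Median centring ended the calls of Ppard in V12/CON (limma adjusted p = 0.0594), Pnpla7 in S-V12/V12 (0.0668) and Acadl in S-V12/CON (0.0504), and a fit of the 2 groups ended those of Ppard in V12/CON (0.0838), Lpl in S-V12/V12 (0.0617), Pnpla2 in E-V12/CON (0.0851) and Acadl in S-V12/CON (0.088). The causes were not tested.

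With each array left out in turn, the genes called of 9 ranged from 4 to 5 in V12/CON, 2 to 4 in S-V12/V12, 0 to 3 in E-V12/S-V12, 2 to 5 in E-V12/V12, 4 to 5 in S-V12/CON and 4 to 6 in E-V12/CON. The pathway genes called ranged, in the same order, from 23 to 32, 19 to 24, 0 to 7, 7 to 16, 32 to 37 and 30 to 39. In E-V12/S-V12 the count of pathway genes was 0 without S-V12 array 2 or E-V12 array 3 or 4 and 7 without CON array 1, and in E-V12/V12 it was 7 without V12 array 1.

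Over all clusters, V12/CON had 1780 higher and 2011 lower, against 774 and 992 by the methods' t-test at their threshold, 682 and 800 after adjustment, and 804 and 1039 by limma with a fold of 2. E-V12/S-V12 had 277 and 351, against 567 and 749 in a fit of the 2 groups and 670 and 871 with array weights. S-V12/V12 had 1866 and 1544, against 2245 and 1206 after median centring.

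Arrays of the same replicate number did not deviate together (correlations -0.095 to 0.111, 4 of 16 arrays nearest to their own number), so the numbers were not taken as a pairing. With the replicate block, 5 of the 9 genes were called in V12/CON, 3 in S-V12/V12, 1 in E-V12/S-V12, 5 in E-V12/V12, 4 in S-V12/CON and 5 in E-V12/CON. Under that block Lpl in S-V12/V12 (limma adjusted p = 0.0516) and Acadl in S-V12/CON (0.0596) lost their calls and Ucp3 in E-V12/V12 gained one (0.0379). With 4 arrays per group, changes near the threshold cannot be placed firmly on either side.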
